A study of Homo sapiens with 6 samples.

Results

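The RNA levels of 9 enzymes of serine synthesis and of folate one-carbon metabolism were followed in SW480 cells, a line established from a human colon adenocarcinoma, after depletion of the splicing factor RBM39. The 9 genes were chosen by their place in the pathway, with earlier results of these data known. PHGDH, PSAT1 and PSPH belong to serine synthesis, and SHMT1 and MTHFD1 to the cytosolic folate arm. SHMT2, MTHFD1L, MTHFD2 and ALDH1L2 belong to the mitochondrial folate arm. Together they are 9 of the 56303 gene rows of the count table and 9 of the 18243 genes with enough counts to be tested. No member was lost to the filter on low counts. The study compared cells with a nonsilencing control hairpin (shCtrl, genotype WT) and cells with a hairpin against RBM39 (shRBM39, genotype RBM39 knockdown), with 3 mRNA libraries in each group. Both hairpins were delivered by lentivirus to cells that were then selected with puromycin, and the methods describe the lines as stable and clonal, so that the groups share vector and selection and may each represent few founder cells. The libraries of a group were described as replicate experiments, called independent in the study's supplement. Whether each came from its own infection was not stated, so p-values measure the spread between these libraries, which may not include that between infections.

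Cells make serine from the glycolytic intermediate 3-phosphoglycerate in the cytosol, where PHGDH catalyses the oxidation that commits carbon to the pathway, PSAT1 transfers an amino group from glutamate, and PSPH removes the phosphate. Serine hydroxymethyltransferase then moves a carbon of serine onto tetrahydrofolate and leaves glycine. This reaction and the oxidation steps that follow run both in the cytosol and in mitochondria, with separate genes for each compartment, and in proliferating cells the mitochondrial arm is known to export formate that the cytosolic arm uses for purines and thymidylate.

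The RNA of the targeted gene was lower in the libraries labelled shRBM39. RBM39 stood between 435 and 448 CPM in shCtrl and between 266 and 292 CPM in shRBM39. CPM are counts per 1e6 counts of a library, here scaled with TMM factors, which assume that most genes do not change. The log2 ratio of shRBM39 to shCtrl for RBM39 was -0.67 (SE 0.04, edgeR adjusted p 1.24e-16). A gene was called when its p, adjusted over all 18243 tested genes by Benjamini-Hochberg, was below 0.05 in the quasi-likelihood test of edgeR. Total counts ran from 18042924 to 20428901 per library, and the 9 genes took from 0.156% to 0.16% of them in shCtrl and from 0.107% to 0.115% in shRBM39. Of 8 epithelial and intestinal markers, which summed to 11700 to 12500 CPM in shCtrl and 14800 to 15300 CPM in shRBM39, 2 were called as higher and 3 as lower. Among these, the intestinal factor CDX2 had 432 to 476 counts in shCtrl and 80 to 109 in shRBM39, and LGALS4 was nearly absent, with 3 to 8 counts per library. Of 8 markers of leukocytes, fibroblasts and endothelium, PTPRC, CD3E and COL3A1 had at most 3 counts in any library. CD68 had 283 to 341 counts per library and COL1A1 had 110 to 208. The sum of the 8 was 26.3 to 26.9 CPM in shCtrl and 32.2 to 37.8 CPM in shRBM39. COL1A1, PECAM1 and VWF were the 3 of them called as higher. Their part in the results was not tested.

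Sequences of the genes on which the comparison of compartments turns are shown first. Among the member genes, SHMT1 and SHMT2 alone had records in the authors' table of splicing events, and the coding exons concerned are given from the GRCh38 genome with GENCODE v44 exons in the sense of the transcript, all in lower case since no single base is singled out. The SHMT1 exons are exon 8 (chr17:18335559-18335675, minus strand) and exon 9 (chr17:18333166-18333288, minus strand) of 12 in the canonical transcript, and the SHMT2 exons are exon 2 (chr12:57230803-57231000, plus strand) and exon 3 (chr12:57231481-57231560, plus strand) of 12.
SHMT1 exon 8: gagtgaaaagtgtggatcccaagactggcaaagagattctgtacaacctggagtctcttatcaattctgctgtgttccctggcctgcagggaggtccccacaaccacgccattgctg
SHMT1 exon 9: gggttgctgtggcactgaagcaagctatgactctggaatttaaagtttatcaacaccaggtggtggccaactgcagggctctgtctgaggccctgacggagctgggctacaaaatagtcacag
SHMT2 exon 2: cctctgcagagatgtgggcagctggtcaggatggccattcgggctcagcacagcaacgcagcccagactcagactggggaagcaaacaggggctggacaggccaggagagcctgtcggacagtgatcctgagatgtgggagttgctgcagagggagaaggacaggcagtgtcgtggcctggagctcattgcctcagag
SHMT2 exon 3: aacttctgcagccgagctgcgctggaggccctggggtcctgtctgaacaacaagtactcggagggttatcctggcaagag
The exons of SHMT1 are 117 and 123 nucleotides long and SHMT2 exon 2 is 198, all multiples of 3, whereas SHMT2 exon 3 has 80 nucleotides and leaves a remainder of 2.

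Promoters were searched for motifs of 3 transcription factors known to act on this pathway, ATF4, MYC and NRF2. RefSeq windows of 250 bases before a transcription start on GRCh38.p14 were at hand for 6 of the 9 genes, with 9 windows in all. PSPH, SHMT2 and ALDH1L2 had no window and were not searched. The motifs, searched on both strands, were TGATGNAA (the C/EBP-ATF response element bound by ATF4), CACGTG (the E-box bound by MYC) and TGACNNNGC (the antioxidant response element core bound by NRF2). Over 35116 windows of all genes, 3.14%, 6.34% and 10.9% held them, in this order. MTHFD1L had a match to the first and to the second, MTHFD1 to the second, and no member window held the third. The matches, in capitals within their surroundings on the plus strand, lie at chr6:150866346-150866375, chr6:150866320-150866349 and chr14:64388326-64388352.
MTHFD1L, C/EBP-ATF response element: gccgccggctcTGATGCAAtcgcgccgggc
MTHFD1L, E-box: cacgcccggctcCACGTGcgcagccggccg
MTHFD1, E-box: ccagtccctaagCACGTGggttgggtt
MTHFD1L was searched in more windows than MTHFD1, and a part of these matches in the RNA changes was not tested. A match is a description of letters and does not show that a factor binds there.

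Serine synthesis was compared first. All 3 of its genes were lower in shRBM39, with the fall largest for the entry enzyme PHGDH and smallest for PSPH. Whether the fall follows the order of the pathway was not tested. As background, 59.1% of all tested genes were called, 29.9% as lower, so a call alone sets no gene apart. In bulk RNA, fewer cells that express a gene cannot be told apart from less RNA per cell.

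PHGDH (chromosome 1, 119659798 to 119744215, GRCh38) had 7978, 8163 and 7760 counts in shCtrl and 3300, 3332 and 3498 counts in shRBM39. The groups were far apart, and no shRBM39 library came near the lowest shCtrl library. Its mean level fell from 387 ± 7.42 to 181 ± 12.6 CPM (n = 3, ± SD). On the log2 scale the change was -1.10 (SE 0.04, edgeR adjusted p 1.25e-21). Of the 18243 genes tested, 596 had a lower log2 fold change.

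PSAT1 (chromosome 9, 78297143 to 78330093), the aminotransferase, had 3172, 3644 and 3231 counts in shCtrl and 1774, 1755 and 1973 counts in shRBM39. The groups did not overlap in CPM, as was the case for 63.3% of all genes tested, 32.3% with shRBM39 lower and 31% with shRBM39 higher. The level of PSAT1 fell from 163 ± 7.81 to 98.1 ± 6.56 CPM (n = 3, ± SD). In the fit, the log2 fold change was -0.73 (SE 0.04, edgeR adjusted p 6.01e-16).

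PSPH (chromosome 7, 56011051 to 56051604), the phosphatase that releases serine, had 1092, 1250 and 1178 counts in shCtrl and 877, 889 and 852 counts in shRBM39. Its groups lay close together, with a lowest shCtrl value of 54.2 CPM and a highest shRBM39 value of 51.6 CPM. The mean of PSPH fell from 57 ± 2.49 to 46.8 ± 4.22 CPM (n = 3, ± SD). Its log2 fold change was -0.29 (SE 0.05, edgeR adjusted p 1.69e-05). This call was lost when the test asked for more than a log2 fold change of 0.5 in place of 0.

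**Figure D1:**
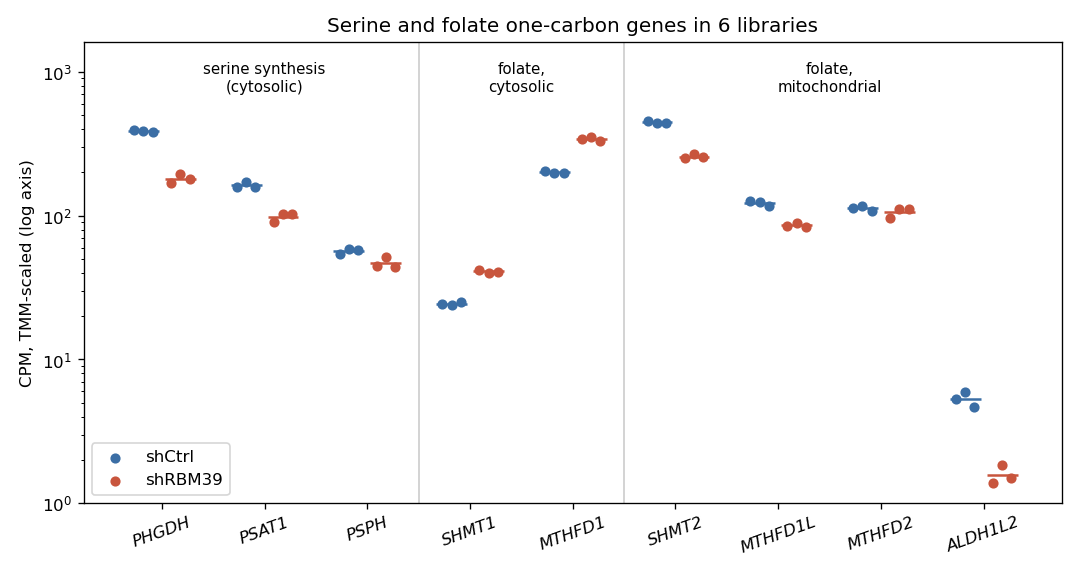
TMM-scaled CPM (log axis) of the 9 genes in each of the 6 libraries, with points for libraries and a bar for the mean of 3. The shRBM39 points lie below the shCtrl points for PHGDH, PSAT1, PSPH, SHMT2, MTHFD1L and ALDH1L2, above them for SHMT1 and MTHFD1, and among them for MTHFD2.

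Next, the cytosolic folate enzymes were examined. Both were higher in shRBM39 and by nearly the same factor, SHMT1 by 68% and MTHFD1 by 70.3%. Both were called as higher, as was a share of 29.2% of all genes tested. SHMT1 (chromosome 17, 18327860 to 18363563), the cytosolic serine hydroxymethyltransferase, had 489, 509 and 508 counts in shCtrl and 823, 692 and 790 counts in shRBM39. The 3 shRBM39 libraries were all above the 3 shCtrl libraries. Its level rose from 24.4 ± 0.529 to 41 ± 0.921 CPM (n = 3, ± SD). On the log2 scale the change was 0.75 (SE 0.05, edgeR adjusted p 4.12e-14).

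MTHFD1 (chromosome 14, 64388031 to 64463457) encodes a cytosolic protein with dehydrogenase, cyclohydrolase and formyltetrahydrofolate synthetase activities. It had 4127, 4225 and 4032 counts in shCtrl and 6702, 6045 and 6444 counts in shRBM39. The spread within a group was small beside the distance between groups. The level of MTHFD1 rose from 201 ± 3.51 to 342 ± 9.24 CPM (n = 3, ± SD). In the fit, the log2 fold change was 0.77 (SE 0.04, edgeR adjusted p 9.98e-19).

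The mitochondrial folate enzymes went the other way, except MTHFD2. Of the 4, 3 fell, SHMT2, MTHFD1L and ALDH1L2, and MTHFD2 was not called. SHMT2 (chromosome 12, 57229327 to 57234935), the mitochondrial serine hydroxymethyltransferase, had 9182, 9294 and 8940 counts in shCtrl and 4901, 4596 and 4931 counts in shRBM39. No member had more counts in the shCtrl libraries, whereas MTHFD1 had more in each shRBM39 library. The level of SHMT2 fell from 444 ± 9.72 to 257 ± 8.73 CPM (n = 3, ± SD). Its log2 fold change was -0.79 (SE 0.04, edgeR adjusted p 7.06e-19).

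MTHFD1L (chromosome 6, 150865549 to 151101887), the mitochondrial synthetase that releases formate, had 2555, 2631 and 2356 counts in shCtrl and 1653, 1534 and 1606 counts in shRBM39. No value of one group lay within the other. Its level fell from 122 ± 5.61 to 85.5 ± 3.24 CPM (n = 3, ± SD). On the log2 scale the change was -0.52 (SE 0.04, edgeR adjusted p 1.54e-12). Like PSPH, it was not called when tested against a log2 fold change of 0.5, with an edgeR adjusted p of 0.635.

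ALDH1L2 (chromosome 12, 105019784 to 105084577), the mitochondrial formyltetrahydrofolate dehydrogenase, was the member with the lowest counts, 107, 126 and 95 in shCtrl and 27, 32 and 29 in shRBM39. The groups did not overlap. The mean of ALDH1L2 fell from 5.31 ± 0.63 to 1.58 ± 0.25 CPM (n = 3, ± SD). In the fit, the log2 fold change was -1.76 (SE 0.17, edgeR adjusted p 3.99e-11). The standard error of ALDH1L2 was the largest among the 9 genes, and 126 of all genes tested had a lower log2 fold change.

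MTHFD2 (chromosome 2, 74198562 to 74217565), the mitochondrial dehydrogenase and cyclohydrolase, had 2261, 2471 and 2198 counts in shCtrl and 1888, 1913 and 2158 counts in shRBM39. Its groups overlapped, since shRBM39 replicates 2 and 3 had 111 CPM each and shCtrl replicate 3 had 108 CPM. The means were 112 ± 4.11 and 106 ± 8.61 CPM (n = 3, ± SD). Its log2 fold change was -0.08 (SE 0.05, edgeR adjusted p 0.14). The call depended on the scaling and on a library. MTHFD2 was called as lower at -0.11 under upper-quartile scaling, at -0.20 under library totals alone, at -0.20 in limma on log2(RPKM + 1), whose RPKM are also scaled by library totals, and at -0.11 without shRBM39 replicate 3, and it was at -0.01 without shRBM39 replicate 1. Library totals alone move the median of all genes from -0.01 to -0.14, so relative to that median MTHFD2 stays close to where it was.

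**Figure D2:**
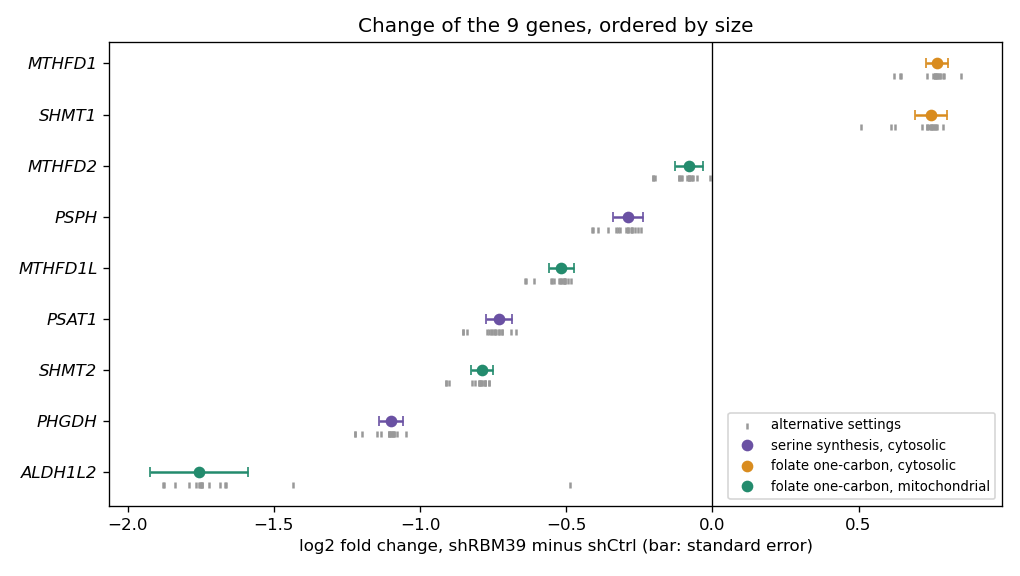
Log2 fold change of the 9 genes (shRBM39 minus shCtrl) in the edgeR fit, with a bar for the standard error, coloured by pathway arm, and grey ticks for the 16 alternative settings. SHMT1 and MTHFD1 lie right of 0 in every setting and the other genes left of it, with MTHFD2 the closest to 0 and the tick of ALDH1L2 nearest to 0, at -0.49, from the fit on log2(RPKM + 1).

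In all, 8 of the 9 members were called, 6 as lower and 2 as higher, with a median log2 fold change of -0.52 against -0.01 over all genes tested. PHGDH and ALDH1L2 also changed at least 2-fold, 2 of 9, where 6.52% of all genes tested did, 2.36% as higher and 4.16% as lower. Both of these members were lower.

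Cytosolic and mitochondrial enzymes were then set against each other within each library. The ratio of counts of 2 genes in the same library needs no scaling between libraries. In each of 4 pairs the ratio moved toward the cytosolic gene in shRBM39, and in each the 3 libraries of one group were apart from the 3 of the other. The pairs of MTHFD1L and of MTHFD2 share MTHFD1 as the cytosolic gene, so they are not independent of each other. The exact two-sided permutation test of 3 against 3 gave p = 0.1 for every pair, the smallest that this design allows, and 0.1 after Benjamini-Hochberg adjustment over the 4 pairs. For the pairs of SHMT2, MTHFD1L and ALDH1L2, both genes already lay apart between groups in opposite directions, so this outcome was fixed in advance. The pair of MTHFD2 mostly reflects the rise of MTHFD1. The ratios thus restate changes of single genes and add no separate evidence.

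The log2 ratio of SHMT2 to SHMT1 was 4.23, 4.19 and 4.14 in shCtrl and 2.57, 2.73 and 2.64 in shRBM39. Per length of merged exons, the ratio was 27.4 ± 0.889 in shCtrl and 9.45 ± 0.519 in shRBM39 (n = 3, ± SD). SHMT2 RNA was thus still the more abundant form in every library. The difference in the log2 ratio was -1.54.

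MTHFD1L had fewer counts than MTHFD1 in every library, and fewer still relative to it in shRBM39. The log2 ratio of counts of MTHFD1L to MTHFD1 was -0.69, -0.68 and -0.78 in shCtrl and -2.02, -1.98 and -2.00 in shRBM39, a difference of -1.28. Per length of merged exons, which need not be the length of the transcripts present, the ratio was 1.14 ± 0.0396 in shCtrl and 0.467 ± 0.00673 in shRBM39 (n = 3, ± SD). The side of 1 on which it lies in shCtrl thus rests on the lengths used, whereas its change between groups does not.

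For MTHFD2 and MTHFD1, a gene that was not called was set against one that rose. The log2 values of this ratio were -0.87, -0.77 and -0.88 in shCtrl and -1.83, -1.66 and -1.58 in shRBM39, a difference of -0.85. ALDH1L2 was compared with its cytosolic counterpart ALDH1L1, which is a low gene with 8 to 23 counts per library. The log2 ratio of ALDH1L2 to ALDH1L1 was 3.22, 3.74 and 3.49 in shCtrl and 0.36, 0.47 and 0.84 in shRBM39, a difference of -2.93, the least precise of the 4 pairs.

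Levels of different genes were compared per length, as TMM-scaled RPKM (CPM per kilobase of merged exons). In shCtrl the order was SHMT2 at 91.9, PSAT1 at 74.4, PHGDH at 68.9, MTHFD1L at 24.3, MTHFD2 at 23.1, MTHFD1 at 21.4, PSPH at 20.6, SHMT1 at 3.35 and ALDH1L2 at 0.624. The libraries of MTHFD1L and MTHFD2 overlapped, as did those of MTHFD1 and PSPH, and the other neighbours did not. In shRBM39, MTHFD1 stood at 36.5 RPKM, between PSAT1 at 44.8 and PHGDH at 32.2, and MTHFD1L had dropped below MTHFD2 to 17 RPKM, overlapping with PSPH at 16.9.

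Summed over its genes, serine synthesis went from 164 ± 3.69 to 94 ± 6.11 RPKM (n = 3, ± SD) and the mitochondrial folate arm from 140 ± 3.14 to 92.2 ± 3.76 RPKM (n = 3, ± SD). The cytosolic folate arm went from 24.8 ± 0.357 to 42.1 ± 0.954 RPKM (n = 3, ± SD). The mitochondrial genes thus made up 85.0%, 85.1% and 84.8% of the folate sum in the shCtrl libraries and 67.7%, 69.1% and 69.2% in the shRBM39 libraries. These sums describe RNA, weigh the abundant genes most, and were not tested. They also rest on merged exon lengths, which need not be the lengths of the transcripts present. These were 9377 bases for MTHFD1 and 7281 for SHMT1, and from 4838 for SHMT2 to 8507 for ALDH1L2 among the mitochondrial genes. The size of the mitochondrial share thus depends on the lengths used.

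**Figure D3:**
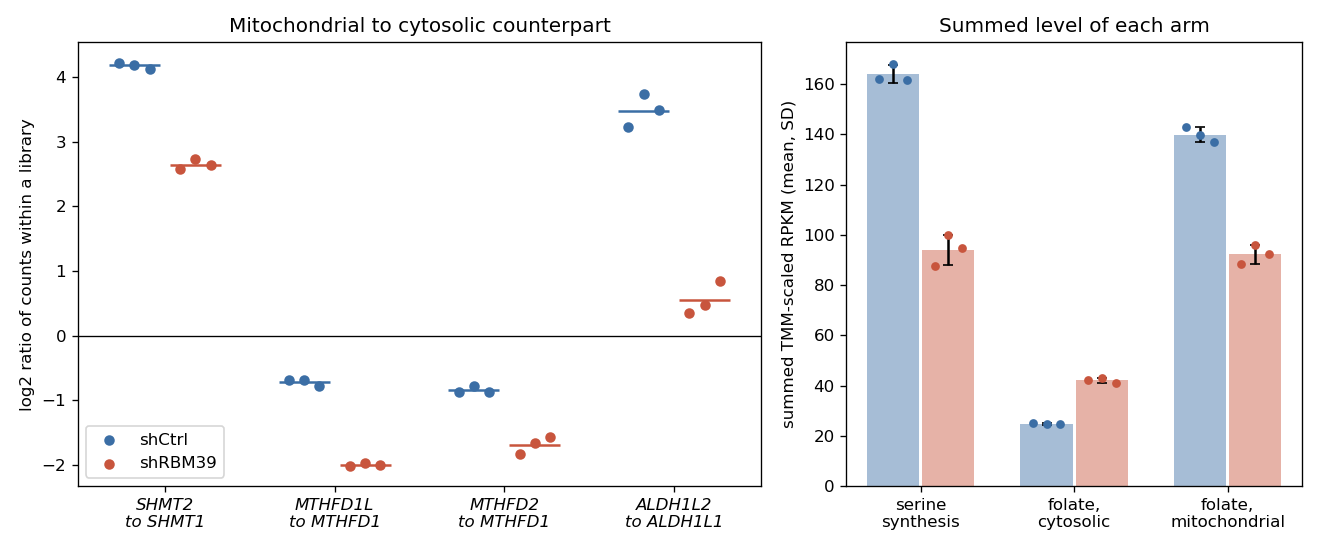
Left, log2 ratio of counts of each mitochondrial gene to its cytosolic counterpart in each library (points) with the group mean (bar). Right, summed TMM-scaled RPKM of the genes of each arm, with bars from 0 for the mean of 3 libraries, black lines for the SD and points for libraries. Every ratio is lower in shRBM39, and only the summed level of the cytosolic folate arm is higher.

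The rest of the pathway was described with 43 further genes in 6 lists, of which 39 could be tested. Of these 39, 17 were called as higher and 14 as lower in shRBM39, with a median log2 fold change of 0.03. Over all genes tested, 29.2% were called as higher and 29.9% as lower, which is also the background for the counts of each list below. The split moved with the scaling, to 10 higher and 17 lower under library totals alone. GLDC, BHMT, GNMT and SDS had at most 11 counts in any library and were not tested.

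Other folate enzymes went both ways, with 5 of 11 called as higher and 2 as lower, or 5 as lower under library totals alone. TYMS, which makes thymidylate, rose from 100 ± 0.721 to 146 ± 1.84 CPM (n = 3, ± SD), with a log2 fold change of 0.54 (edgeR adjusted p 2.54e-14). ALDH1L1, the cytosolic formyltetrahydrofolate dehydrogenase, rose from 0.455 ± 0.0805 to 1.08 ± 0.255 CPM (n = 3, ± SD), a log2 fold change of 1.22 (edgeR adjusted p 0.00137). MTHFD2L, a mitochondrial relative of MTHFD2, rose by 0.39 on the log2 scale (edgeR adjusted p 0.000133). GART and ATIC, which use formyl groups in purine synthesis, were not called, at 0.01 and -0.03.

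Of 6 genes of folate transport and retention, 3 were called as higher and none as lower, the largest change being that of the folate receptor gene FOLR1 at 0.35 (edgeR adjusted p 6.94e-06). SLC25A32, the carrier that brings folate into mitochondria, was not called, at -0.01. Of the glycine cleavage system, which breaks down glycine in mitochondria, GLDC had at most 8 counts in any library and was not tested. The 3 other genes of this list were called as higher, GCSH at 0.58, DLD at 0.36 and AMT at 0.28. Under library totals alone 2 of these 3 and 2 of the transport genes were called, all as higher.

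The methionine and homocysteine cycle had 5 of 7 tested genes called as lower and 2 as higher, MAT2B and AHCY, neither of which was called as higher under library totals alone. CBS, which joins serine to homocysteine, had 866, 937 and 786 counts in shCtrl and 225, 198 and 247 counts in shRBM39. It fell from 41.9 ± 2.87 to 11.9 ± 0.727 CPM (n = 3, ± SD), a log2 fold change of -1.81 (edgeR adjusted p 1.06e-21). CBS has a near-identical copy in the GRCh38 sequence, and how the counting treated shared reads is not stated. Among 9 tested serine carriers and serine-using enzymes, 4 were called as higher and 4 as lower, against 1 and 4 under library totals alone. The amino acid transporter gene SLC1A4, which carries serine, fell from 14.4 ± 1.92 to 6.65 ± 0.132 CPM (n = 3, ± SD), a log2 fold change of -1.12 (edgeR adjusted p 7.98e-12).

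The regulators listed are transcription factors known to act on genes of this pathway, and the 3 of them fell. MYC went from 344 ± 17.4 to 176 ± 4.18 CPM (n = 3, ± SD), a log2 fold change of -0.96 (edgeR adjusted p 1.46e-20). ATF4 went from 918 ± 16 to 684 ± 41.2 CPM and NFE2L2, which encodes NRF2, from 60.3 ± 0.458 to 45.2 ± 3.16 CPM (n = 3, ± SD), with log2 fold changes of -0.43 and -0.42. Their part in the change of the members was not tested.

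**Figure D4:**
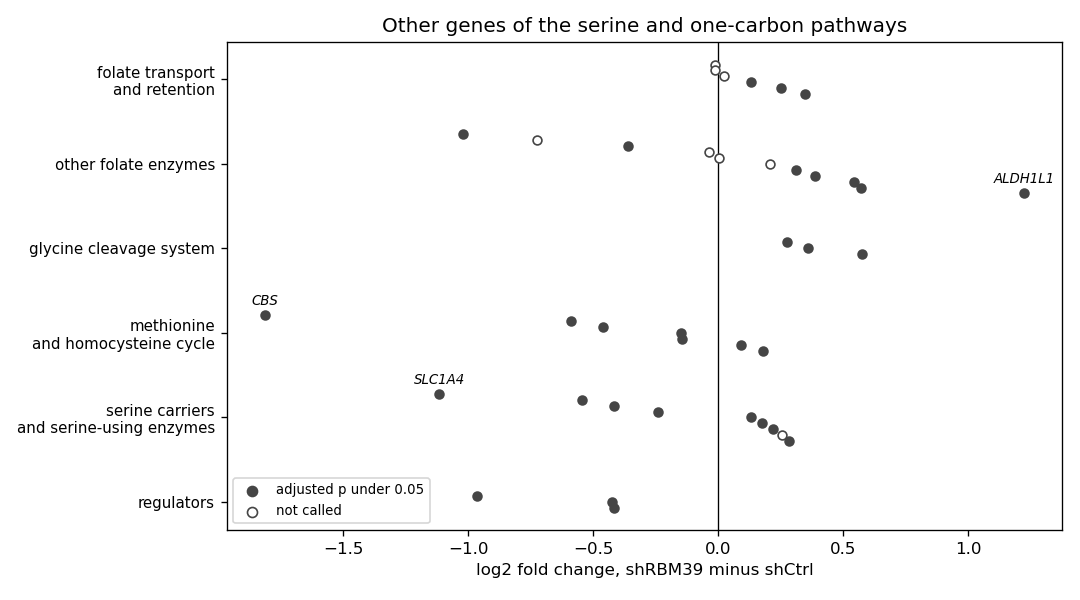
Log2 fold change (shRBM39 minus shCtrl) of 39 further genes of the serine and one-carbon pathways by list, with filled points for an edgeR adjusted p under 0.05 and open points for genes not called. Of the labelled genes, which changed at least 2-fold, CBS lies farthest to the left at -1.81 and ALDH1L1 farthest to the right at 1.22.

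Genes with the most similar profile were sought by Euclidean distance between log2 CPM centred over the 6 libraries, among the 12050 other genes whose mean CPM was 5 or more. Nearest to PHGDH were CA9, which encodes a carbonic anhydrase, PARP12 and the pseudogene RP9P, at distances of 0.0974, 0.109 and 0.112. Nearest to MTHFD1 were EIF4E2, MYL6B and PRC1, at 0.0371, 0.0457 and 0.0473, with log2 fold changes of 0.75, 0.77 and 0.77. Nearest to MTHFD2 were APOOL, UBTD1 and NEIL2, at 0.0522, 0.0601 and 0.071, none of which was called. With 2 groups of 3 libraries the distance mostly compares the size of the change.

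Lastly, the splicing records were read. The authors' table, made with rMATS, holds 1582 records selected for a difference between its 2 groups, called group 1 and group 2 in its header. Neither its header nor the labels say which hairpin each name stands for, so values are given under them and no test was made. Of the records, 4 belong to member genes, 1 to SHMT2 and 3 to SHMT1. The SHMT2 record pairs exon 2 with exon 3, printed above, as mutually exclusive exons. The inclusion level here weighs exon 2 against exon 3, after correction for effective length. The canonical transcript holds both exons, so this level is not the share of all SHMT2 RNA that has exon 2. It was 0.125, 0.114 and 0.121 in group 1 and 0.233, 0.327 and 0.307 in group 2. At least 138 reads lay behind each of these levels. Every group 1 level was below every group 2 level.

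The SHMT1 records concern skipping of exon 8 and exon 9 together or of exon 8 alone, and the sequences of both exons are shown above. For exon 9, set between exons flanking the whole stretch, the inclusion level of group 1 was 0.262, 0.37 and 0.426 and that of group 2 was 0.631, 0.837 and 1. For exon 8 with the same flanking exons it was 0.168, 0.273 and 0.149 for group 1, against 0.467, 0.826 and 1 for group 2. Both records count the same skipping reads, 13, 7 and 9 in group 1 and 3, 1 and 0 in group 2, and are not independent of each other. These reads join the shared flanking exons directly and so lack exon 8 and exon 9 together. Neither record thus measures skipping of a single exon. The other record, exon 8 with exon 9 as a flank, concerns skipping of exon 8 alone. It gave 0.787, 1 and 0.479 for group 1 and 1, 0.853 and 0.759 for group 2, which overlapped. As few as 6 reads lay behind a SHMT1 level, so these levels are imprecise.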

How the data were processed

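As deposited, the data are unnormalized counts for each gene symbol and RPKM (counts per kilobase of merged exons and per 1e6 counts) for 3 shCtrl and 3 shRBM39 libraries, prepared with a stranded mRNA kit. The submitters' processing notes name Trimmomatic 0.36, STAR 2.5.3a, featureCounts (Subread 1.5.1), edgeR 3.12.1 and GRCh38. Strand setting, multi-mapped reads and collapsing of unique identifiers are not given in the sources used here. Deposited RPKM and RPKM computed here from the counts differed by a relative 1.2e-13 at most. Of 344 exons of the 9 genes in the count table, 92.2% were identical to GENCODE v44 exons. The members have 14 pseudogene rows, each with at most 0.238% of a member's counts. Columns named NC were taken for shCtrl, since the labels give no other control.

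Counts were fitted in edgeR 4.0.16 (R 4.3.3) with filterByExpr, TMM, a quasi-likelihood test of the hairpin with no other term, and p-values adjusted by Benjamini-Hochberg over all tested genes (threshold 0.05). Standard errors were derived from the log2 fold change and its F statistic. Ratios within a library were formed as log2 of (count + 0.5)/(count + 0.5) and tested by exact permutation. Alternatives were DESeq2 1.42.0, limma 3.58.1 on log2(RPKM + 1) and log2(RPKM + 0.1), other scalings and filters, a replicate block, each library left out in turn, and testing for a change beyond 0.5 on the log2 scale. A correction for GC content and length was chosen after seeing the data. The fit was tested on simulated data.

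Members and lists were chosen with earlier results of these data known. The named genes were the 9 members, the pathway genes that were called and changed at least 2-fold, the largest change of each pathway list where the mean CPM was 1 or more, and the nearest profiles. Other pathway genes were named after their values were seen, and some genes that the rule names are not reported here. The p-values, FDR and differences of the authors' splicing comparison and their tally of events were not used.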

Additional observations from a re-analysis of the deposited data

How the results depend on the processing

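PHGDH, PSAT1, SHMT1, MTHFD1, SHMT2 and ALDH1L2 kept direction and call in the 16 alternatives run, and MTHFD1L and PSPH in 15 of them, the exception being the test beyond 0.5 on the log2 scale. The number of genes called was 2232 in this test, against 10790, since it asks for a larger change. MTHFD2 kept its direction in the 16 alternatives and was called in 5. Members called and changed at least 2-fold were 1 in place of 2 on log2(RPKM + 1), where ALDH1L2 was at -0.49. The log2 ratio of ALDH1L2 to ALDH1L1 differed by -1.81 on log2(RPKM + 0.1), against -2.93, where the pseudocount is above every RPKM of ALDH1L1. With a library left out, 10138 to 10263 genes were called. Of all genes called, 49.4% were higher, against 33.9% under library totals alone and 33.6% on log2(RPKM + 1) and log2(RPKM + 0.1). Same-numbered libraries of the groups did not deviate together (correlations of 0.00612, -0.0282 and 0.000114, with other numbers from -0.0403 to 0.0405). This gave no sign that the numbers pair them, but it cannot exclude a shared handling. The replicate block called 10810 genes and 8 members. The low counts of ALDH1L1 and the few reads behind the SHMT1 splicing levels limit what these data can show of them.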
